A study of Homo sapiens with 6 samples.

Results

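The nuclear genes of respiratory complex I were compared between U-937 cells that carried a guide RNA against METTL1 (sgMETTL1.3) and U-937 cells that carried a control guide (sgNS). They were the rows of the expression table whose name was NDUF followed by A, AB, AF, B, C, S or V and a number. The rule found 45 genes among 26902 rows, 38 named as subunits and 7 as NDUFAF assembly factors. U-937 is a human leukemia line with monocytic features. The labels describe it as acute myeloid leukemia with a KMT2A-MLLT10 fusion, and that fusion was not checked here. Both groups came from a single-cell clone expressing Cas9, received their guide by lentivirus, were selected with blasticidin at 10 µg/ml and hygromycin B at 200 µg/ml, and were harvested at about day 8 to 10 after transduction. Poly(A)-enriched RNA was sequenced from 3 sgMETTL1.3 libraries and 3 sgNS libraries. With a single clone and a single METTL1 guide, effects of the guide other than loss of METTL1 cannot be told apart from it. Whether the replicates were separate cultures is not in the labels, and the p-values therefore reflect variation among these libraries, which may be technical.

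Complex I is the NADH dehydrogenase of the inner mitochondrial membrane. It takes electrons from NADH, passes them along iron-sulfur clusters to ubiquinone, and pumps protons. Its matrix arm holds the N module, which binds NADH, and the Q module, which binds ubiquinone; its membrane arm holds the proton pumps, which are encoded by mitochondrial DNA and were not analysed here. The core subunits carry the catalysis, the accessory subunits surround them, and the assembly factors help to build the enzyme and are absent from the finished complex.

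The values were TPM, a share of the library's transcripts corrected for length, multiplied by a factor per library, so that 92 ERCC spike-in RNAs summed to the same total in each library. They are per transcript length, so levels can be compared between genes; the depth in reads is unknown. Spike-ins made up 3.73% to 4.6% of the total in sgMETTL1.3 libraries and 3.12% to 3.39% in sgNS libraries. The labels give 300 ng of total RNA for each library, but not the spike-in amount or the step at which it was added. Whether the spike-in scale counts RNA per cell or per amount of total RNA is therefore unknown. Of the 9 myeloid markers listed for these cells, 8 passed the filter on low values and MPO did not; the 3 erythroid markers were at 0 in every library. Of the 4 T and NK markers CD3D was at 0 and NKG7 alone was tested and was lower (-0.74), and the 4 summed to 156 to 239 in sgMETTL1.3 libraries and 304 to 338 in sgNS libraries. The 4 fibroblast and endothelial markers summed to 35.9 to 40.01 in sgMETTL1.3 libraries and 45.9 to 49.8 in sgNS libraries, with COL1A1 higher (0.62), PECAM1 lower (-0.40) and COL1A2 at 0. The 3 B cell markers summed to 4.26 to 8.18 in sgMETTL1.3 libraries and 3.69 to 5.31 in sgNS libraries, with MS4A1 at 0 and the other 2 not called, and the 3 epithelial markers to at most 0.0475 in any library. Of the 8 myeloid markers tested 6 were lower, against 49.3% of all tested genes. As TPM, with the spike-in factor removed, 4 of the 8 were lower and 1 higher, against 25.3% and 24.8% of all tested genes. The 9 myeloid markers summed to 614 to 802 in sgMETTL1.3 libraries and 1119 to 1200 in sgNS libraries on the spike-in scale. The part of these marker lists in the results was not tested. The target transcript METTL1 had values of 8.28, 5.94 and 7.42 in sgMETTL1.3 libraries and 19.7, 22.0031 and 20.3 in sgNS libraries (log2 fold change -1.41, limma adjusted p = 2.41e-06). The library sgMETTL1.3 replicate 1 stood apart: its deviation from the other libraries of its group followed transcript GC content (Spearman 0.836 across 12047 genes, which are not independent replicates), so counts are also given without it.

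All 7 NDUFAF assembly factors fell in sgMETTL1.3 cells on the spike-in scale. In each of the 7 genes the highest sgMETTL1.3 library was below the lowest sgNS library. Among all 12449 genes tested with limma at an adjusted p under 0.05, 49.3% were called lower and 6.4% higher, while 53.4% were lower and 8.66% higher without overlap between the groups. The 7 log2 fold changes ran from -0.84 to -0.36 with a median of -0.54, against a median of -0.32 over all tested genes. In bulk RNA, fewer cells of a type and less RNA per cell cannot be told apart. As TPM, where the factor of the spike-ins is removed, 3 of the 7 were called lower and none higher, against 25.3% of all genes lower and 24.8% higher; 5 of the 7 were lower without overlap, against 32.1% of all genes (30.9% higher).

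NDUFAF4, a factor that binds the early Q module, had the lowest fold change of the 7. Its values were 15.2, 14.03 and 17.2 in sgMETTL1.3 libraries and 27.4, 28.5 and 29.4 in sgNS libraries. The groups were well apart, with means of 15.5 ± 1.57 in sgMETTL1.3 and 28.4 ± 0.979 in sgNS (SD, n = 3 each). The log2 fold change of NDUFAF4, fitted on log2(value + 1), was -0.84 (SE 0.113, limma adjusted p = 3.95e-05). NDUFAF4 was also lower as TPM (-0.49, limma adjusted p = 0.00314). The gene spans chr6:96889313-96897881 on the minus strand (GRCh38, GENCODE release 29), and 4 annotated pseudogenes carry its name, so some reads may be shared. Its partner NDUFAF3, on the plus strand of chromosome 3 at 49020459 to 49023495, had values of 47.4, 31.0 and 35.0 in sgMETTL1.3 libraries and 50.6, 55.5 and 55.5 in sgNS libraries. NDUFAF3 fell by 0.52 on the log2 scale (limma adjusted p = 0.00905), and its sgMETTL1.3 replicate 1 was close to the sgNS libraries. Without that library its log2 fold change was -0.69, and without sgMETTL1.3 replicate 3 the call was lost (-0.48, limma adjusted p = 0.0594). Its transcript has 61.1% GC, the highest of the 7 factors, and it overlaps DALRD3 on the other strand; whether reads were counted by strand is not given in the sources used here.

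NDUFAF2 and NDUFAF6 fell by amounts close to that of NDUFAF4. NDUFAF2, a paralog of the subunit NDUFA12 that binds late intermediates, had values of 42.0, 38.7 and 40.6 in sgMETTL1.3 libraries and 72.8, 70.7 and 64.4 in sgNS libraries. Its log2 fold change was -0.76 (SE 0.101, limma adjusted p = 3.44e-05) and it was lower as TPM (-0.40, limma adjusted p = 0.00896). It lies on the plus strand of chromosome 5 at 60945129 to 61153037. NDUFAF6, an early assembly factor on the plus strand of chromosome 8 at 94895767 to 95116455, had values of 11.4, 10.1 and 12.3 in sgMETTL1.3 libraries and 19.3, 21.6 and 19.2 in sgNS libraries. Its log2 fold change was -0.78 (limma adjusted p = 0.000106), and -0.44 as TPM, where it was also called lower (limma adjusted p = 0.00441).

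The other 3 factors, like NDUFAF3, fell on the spike-in scale and were not called as TPM. NDUFAF1, which builds the membrane arm together with ACAD9, ECSIT and TMEM126B, had values of 46.7, 42.4 and 50.9 in sgMETTL1.3 libraries and 64.5, 67.9 and 71.5 in sgNS libraries. It spans chr15:41387349-41402519 on the minus strand, and its log2 fold change was -0.54 (limma adjusted p = 0.000768; as TPM -0.18, limma adjusted p = 0.0931). NDUFAF5, an arginine hydroxylase of the core subunit NDUFS7, had values of 5.77, 5.14 and 5.88 in sgMETTL1.3 libraries and 7.77, 8.81 and 8.92 in sgNS libraries. It was the lowest of the 45 genes in level and lies on the plus strand of chromosome 20 at 13784950 to 13821582; its log2 fold change was -0.53 (limma adjusted p = 0.00254; as TPM -0.21, limma adjusted p = 0.0566). NDUFAF7, an arginine methyltransferase, had values of 24.4, 22.8 and 28.1 in sgMETTL1.3 libraries and 30.8, 31.3 and 35.1 in sgNS libraries. Its fold change was the nearest to 0 of the 7 (-0.36, limma adjusted p = 0.0169), the call was lost without sgNS replicate 3 (-0.30, limma adjusted p = 0.119), and as TPM the groups overlapped (-0.01, limma adjusted p = 0.941). NDUFAF7 lies on the plus strand of chromosome 2 at 37231631 to 37253403, and CEBPZ and PRKD3 overlap its exons on the other strand.

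**Figure D1:**
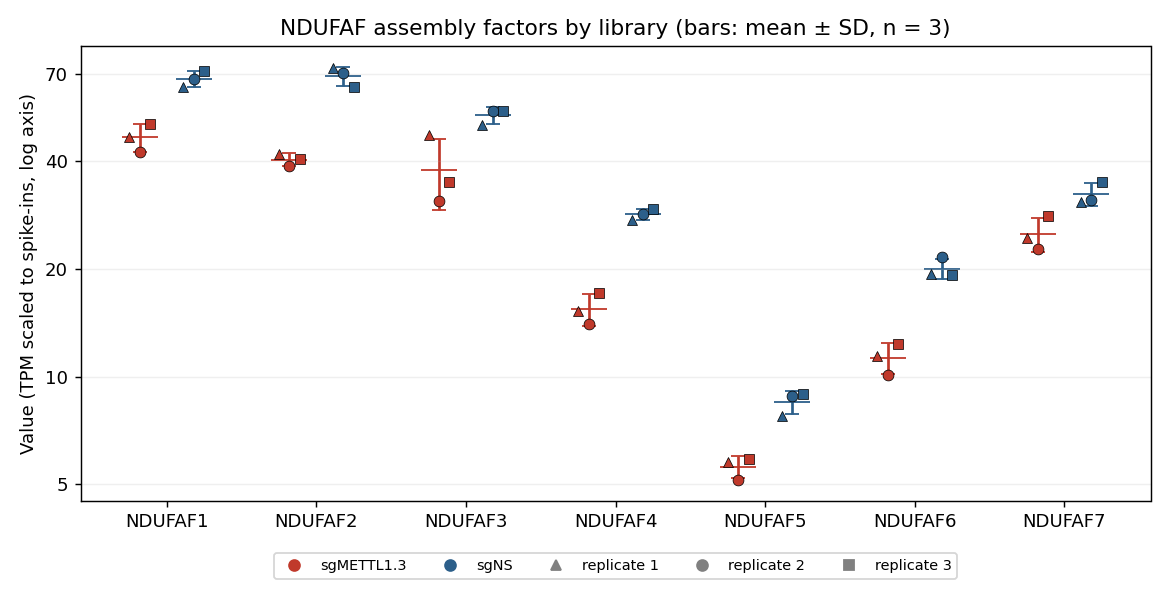
Values of the 7 NDUFAF assembly factors (vertical log axis, TPM scaled to spike-ins) in each sgMETTL1.3 library (red) and sgNS library (blue), with symbols for the replicate number and bars for mean ± SD (n = 3). The red points lie below the blue points for each gene, with the smallest gap for NDUFAF3, where sgMETTL1.3 replicate 1 had 47.4 and the lowest sgNS library 50.6.

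An eighth NDUFAF gene and the assembly factors with other names showed the same direction on this scale. NDUFAF8, which stabilises NDUFAF5, falls outside the rule because the table lists it under the older symbol C17orf89, and it was added after its values were seen. It had values of 37.6, 21.3 and 26.7 in sgMETTL1.3 libraries and 51.2, 45.8 and 44.4 in sgNS libraries (log2 fold change -0.74, limma adjusted p = 0.0078; as TPM -0.39 without a call). Of 14 further assembly factors on a separate list, 12 fell, none rose and 2 did not pass, with a median log2 fold change of -0.62, against 49.3% of all genes lower, 6.4% higher and a median of -0.32. As TPM, 6 were lower and none higher, against 25.3% and 24.8% of all genes. NUBPL, which delivers iron-sulfur clusters to complex I, fell to 3.98, 3.59 and 4.47 in sgMETTL1.3 libraries, against 8.19, 9.81 and 9.09 in sgNS libraries (log2 fold change -1.0004, limma adjusted p = 2.81e-05). ACAD9, the partner of NDUFAF1, fell with a log2 fold change of -0.77, AIFM1, which takes part in protein import into the intermembrane space, with -0.68, and TIMMDC1, a membrane arm factor, with -0.65.

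Of the 38 genes named as subunits, 18 fell, none rose and 20 did not pass on the spike-in scale. That share of lower genes is close to the 49.3% among all tested genes, and the median log2 fold change of the subunits, -0.30, is close to the -0.32 of all tested genes. As TPM, 9 subunits were called higher and 5 lower (all genes 24.8% and 25.3%), with a median of 0.06. Without sgMETTL1.3 replicate 1, 31 of the 38 were called lower on the spike-in scale and none higher, against 61.4% and 6.43% of all genes, in a fit that pooled the spread across most genes; as TPM 15 were then higher and 11 lower, against 36.3% and 34.3%. In levels, NDUFB9, NDUFS5, NDUFA13 and NDUFA1 were the 4 highest in sgNS libraries, with means of 598, 597, 595 and 584, which lay within the spread of one another. Among subunits NDUFC2 (15.4) and NDUFA10 (15.9) were the lowest.

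**Figure D2:**
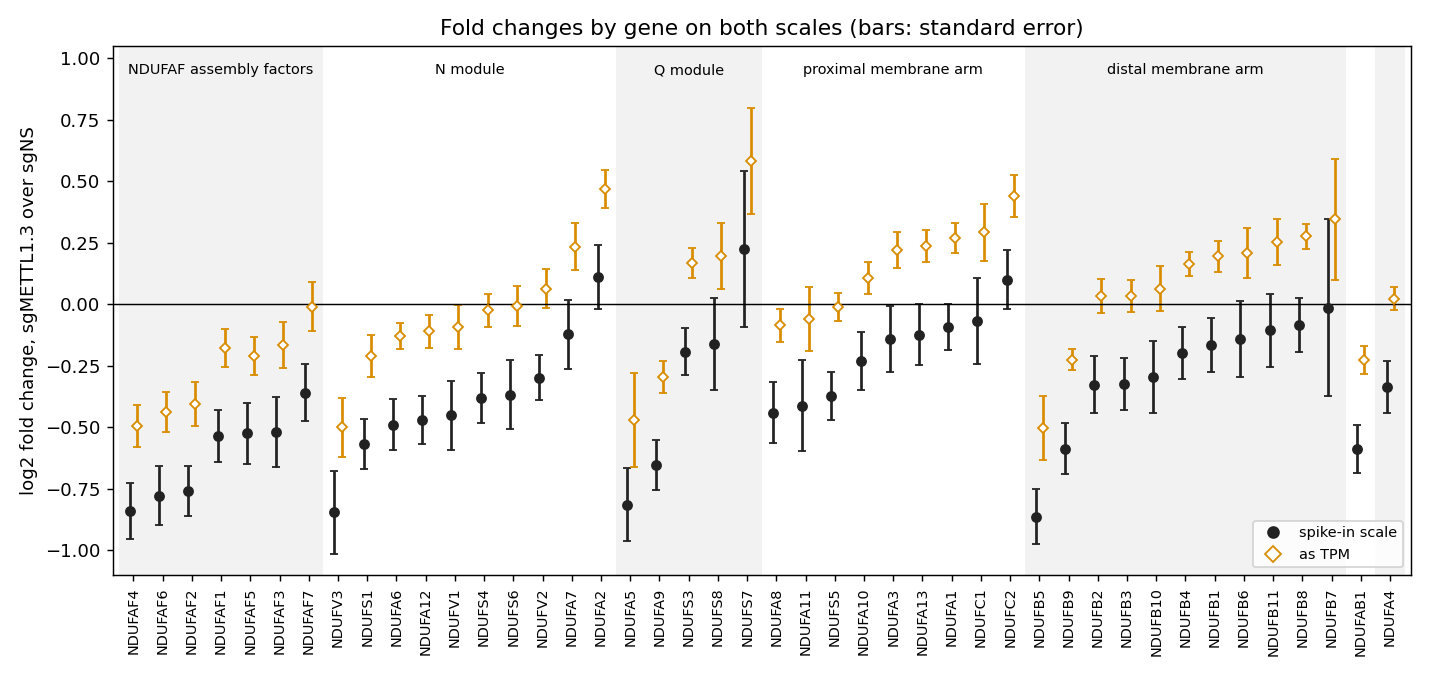
Log2 fold changes by gene, sgMETTL1.3 over sgNS (vertical axis), with standard errors, on the spike-in scale (black circles) and as TPM (open diamonds); genes are ordered by fold change within the assembly factors, the modules, NDUFAB1 and NDUFA4. The assembly factors lie between -0.84 and -0.36 on the spike-in scale, while subunits run from -0.86 for NDUFB5 to 0.22 for NDUFS7, and the TPM values lie higher by a nearly constant amount.

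Among the nuclear core subunits NDUFS1, NDUFV1 and NDUFV2 fell, while NDUFS3, NDUFS7 and NDUFS8 did not pass. NDUFS1, which holds several of the iron-sulfur clusters, had values of 66.3, 64.1 and 74.8 in sgMETTL1.3 libraries and 95.9, 106 and 104 in sgNS libraries. These groups did not overlap (log2 fold change -0.57, SE 0.102, limma adjusted p = 0.000391), and as TPM it was not called (-0.21, limma adjusted p = 0.0773). NDUFV1, which binds NADH and the flavin, had values of 113, 74.2 and 85.4 in sgMETTL1.3 libraries and 115, 126 and 127 in sgNS libraries. Its sgMETTL1.3 replicate 1 reached almost to the sgNS libraries, and the call (-0.45, limma adjusted p = 0.0183) was lost without sgMETTL1.3 replicate 3 (-0.42, limma adjusted p = 0.0876) and with no filter on low values (limma adjusted p = 0.0535). NDUFV2, an iron-sulfur subunit beside NDUFV1, had values of 223, 222 and 232 in sgMETTL1.3 libraries and 266, 289 and 281 in sgNS libraries (-0.30, limma adjusted p = 0.014). As TPM its log2 fold change was 0.06 without a call, and on the spike-in scale the call was lost without sgNS replicate 2 (limma adjusted p = 0.0976) or sgNS replicate 3 (limma adjusted p = 0.0928). With the replicate number as a block, the limma adjusted p of NDUFV2 was 0.0561.

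Of the other core subunits, the groups overlapped on the spike-in scale for NDUFS7, which lies at the ubiquinone site, and for the iron-sulfur subunit NDUFS8. NDUFS3, an early member of the Q module, had values of 181, 159 and 174 in sgMETTL1.3 libraries and 194, 191 and 203 in sgNS libraries; the groups did not overlap, and it did not pass (-0.19, limma adjusted p = 0.104). NDUFS7, the substrate of NDUFAF5, had values of 185, 80.2 and 101 in sgMETTL1.3 libraries and 90.4, 98.8 and 105 in sgNS libraries. Replicate 1 of sgMETTL1.3 lay far above the other 5 libraries, and NDUFS7 has the highest GC content of the 45 genes, 66.8%. It did not pass at 0.22 (SE 0.318, limma adjusted p = 0.59), and its log2 fold change was -0.12 without that library. As TPM its groups did not overlap, with 187, 101 and 111 in sgMETTL1.3 libraries and 82.8, 83.1 and 89.5 in sgNS libraries. The TPM fold change was 0.58 without a call (limma adjusted p = 0.0574). NDUFS7 was called higher as TPM without sgMETTL1.3 replicate 1 (0.31, limma adjusted p = 0.00055) and as TPM with GC correction (0.29, limma adjusted p = 0.00151). On the spike-in scale NDUFS8 showed the same shape, with 98.7, 55.5 and 68.1 in sgMETTL1.3 libraries and 79.9, 77.6 and 84.9 in sgNS libraries. It did not pass with all libraries (-0.16, limma adjusted p = 0.492) and was called lower without sgMETTL1.3 replicate 1 (-0.39, limma adjusted p = 0.000802).

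**Figure D3:**
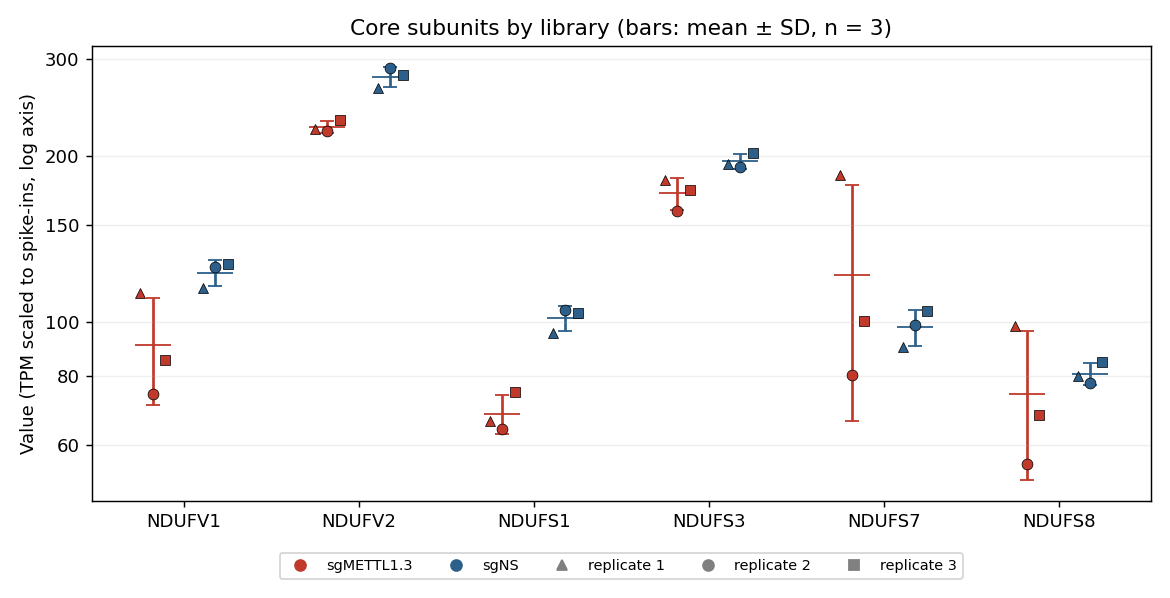
Values of nuclear core subunits (vertical log axis, TPM scaled to spike-ins) in each sgMETTL1.3 library (red) and sgNS library (blue), with symbols for the replicate number and bars for mean ± SD (n = 3). For NDUFS7 the red triangle, sgMETTL1.3 replicate 1, stands at 185 above 5 libraries between 80.2 and 105, while for NDUFS1 and NDUFV2 the red points lie below the blue ones.

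In the N module, core and accessory, 8 of 10 subunits fell, with a median log2 fold change of -0.42, against 49.3% of all genes lower and a median of -0.32. As TPM 1 was lower and 1 higher, against 25.3% and 24.8% of all genes. NDUFV3, an accessory subunit beside NDUFV1, was the lowest of them, with 17.9, 12.2 and 15.8 in sgMETTL1.3 libraries and 22.4, 32.7 and 29.9 in sgNS libraries. The groups were apart on both scales, at -0.85 (SE 0.169, limma adjusted p = 0.00175) and -0.50 as TPM (limma adjusted p = 0.012). NDUFA6, NDUFA12, NDUFS4 and NDUFS6 fell with log2 fold changes from -0.49 to -0.37, and none of these 4 was called as TPM. For NDUFS6 the groups overlapped on the spike-in scale, and its call was near the cutoff (limma adjusted p = 0.0433). NDUFA7 did not pass (-0.12). NDUFA2, which has a thioredoxin-like fold, was the N module member that was called higher as TPM (0.47, limma adjusted p = 0.00258). Its spike-in values were 77.3, 53.7 and 60.9 in sgMETTL1.3 libraries and 54.1, 60.8 and 60.7 in sgNS libraries, which overlapped (0.11, limma adjusted p = 0.491).

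In the Q module the lowest log2 fold changes were those of the accessory subunits NDUFA5 and NDUFA9. NDUFA5 had values of 10.2, 14.2 and 15.5 in sgMETTL1.3 libraries and 22.3, 26.4 and 23.0 in sgNS libraries. All sgMETTL1.3 libraries were lower (log2 fold change -0.82, SE 0.148, limma adjusted p = 0.000541), with replicate 1 the lowest, and 12 annotated pseudogenes carry its name. As TPM it was not called (-0.47, limma adjusted p = 0.0754). NDUFA9, which sits where the matrix arm meets the membrane, had values of 95.3, 83.9 and 101 in sgMETTL1.3 libraries and 141, 149 and 151 in sgNS libraries. It was lower on both scales, at -0.65 (SE 0.102, limma adjusted p = 0.000133) and -0.29 as TPM (limma adjusted p = 0.00894).

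Of the 20 membrane arm subunits, 6 fell, none rose and 14 did not pass, with a median log2 fold change of -0.18, against 49.3% of all genes lower and a median of -0.32. As TPM, 7 were higher and 2 lower, with a median of 0.18, against 24.8% of all genes higher, 25.3% lower and a median of 0.015. Without sgMETTL1.3 replicate 1 on the spike-in scale 16 were lower, in a fit where 61.4% of all genes were lower. In the proximal part, next to the matrix arm, NDUFA8 (-0.44) and NDUFS5 (-0.37) fell and the other 7 did not pass, among them NDUFA11 (-0.41). NDUFC2 had values of 16.7, 14.7 and 18.4 in sgMETTL1.3 libraries and 14.4, 15.3 and 16.4 in sgNS libraries, which overlapped (0.10, limma adjusted p = 0.507), while as TPM it was called higher (0.44, limma adjusted p = 0.00483). It shares exons with the read-through locus NDUFC2-KCTD14, so reads could be assigned to either. NDUFC1 had values of 125, 73.8 and 90.4 in sgMETTL1.3 libraries and 91.8, 104 and 100 in sgNS libraries, with sgMETTL1.3 replicate 1 the highest (-0.07, limma adjusted p = 0.769). Without that library its log2 fold change was -0.27 (limma adjusted p = 0.0204), in the fit that pooled the spread. NDUFA1, NDUFA3 and NDUFA13 did not pass on the spike-in scale (-0.14 to -0.09) and were called higher as TPM (0.22 to 0.27).

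In the distal part, NDUFB5 had the lowest log2 fold change of all 45 genes. Its values were 75.1, 83.1 and 97.9 in sgMETTL1.3 libraries and 151, 163 and 153 in sgNS libraries. The means were 85.4 ± 11.6 in sgMETTL1.3 and 155 ± 6.32 in sgNS (SD, n = 3 each). The fitted log2 fold change was -0.86 (SE 0.111, limma adjusted p = 2.81e-05), and NDUFB5 was lower as TPM (-0.51, limma adjusted p = 0.0161). NDUFB5 lies on the plus strand of chromosome 3 at 179604690 to 179627647. NDUFB9 fell (-0.59) and was the other distal subunit that was lower as TPM (-0.23, limma adjusted p = 0.00413); NDUFB2 and NDUFB3 fell (-0.33 each) and were not called as TPM. The 7 others did not pass, among them NDUFB7, a cysteine-rich subunit on the intermembrane side, with 189, 77.9 and 93.3 in sgMETTL1.3 libraries and 109, 103 and 125 in sgNS libraries. Replicate 1 of sgMETTL1.3 decided its value, since the log2 fold change was -0.01 (SE 0.36, limma adjusted p = 0.977) with it and -0.39 (SE 0.109, limma adjusted p = 0.000647) without it. The smaller SE came from the fit that pooled the spread across most genes. NDUFB1, NDUFB4 and NDUFB8 did not pass on the spike-in scale (-0.20 to -0.09) and were called higher as TPM (0.16 to 0.28).

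NDUFAB1 and NDUFA4 stand outside the modules. NDUFAB1, the mitochondrial acyl carrier protein, which also serves fatty acid and iron-sulfur cluster synthesis, had values of 191, 170 and 192 in sgMETTL1.3 libraries and 260, 284 and 289 in sgNS libraries. It was lower without overlap on both scales (log2 fold change -0.59, limma adjusted p = 0.000213; as TPM -0.23, limma adjusted p = 0.0147). NDUFA4, named for complex I but now placed in cytochrome c oxidase, had values of 133, 109 and 125 in sgMETTL1.3 libraries and 146, 160 and 159 in sgNS libraries. It fell (-0.34, limma adjusted p = 0.0145) and had a log2 fold change of 0.02 as TPM; without it, 17 of 37 subunits fell.

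The comparison of subunits with assembly factors can be made within a library, where the spike-in factor nearly cancels. The mean log2(value + 1) of the 38 subunits minus that of the 7 NDUFAF genes was 2.41, 2.22 and 2.22 in sgMETTL1.3 libraries and 1.93, 1.98 and 1.99 in sgNS libraries. The 3 sgMETTL1.3 libraries were all above the 3 sgNS libraries, and sgMETTL1.3 replicate 1 was the highest. The means were 2.28 ± 0.108 in sgMETTL1.3 and 1.96 ± 0.0348 in sgNS (SD, n = 3 each), a difference of 0.32. As TPM the difference was 0.33, without sgMETTL1.3 replicate 1 it was 0.26, and after GC correction on the spike-in scale it was 0.24. It is given as a description with no p, since the genes were chosen with results of these data known. All 7 NDUFAF fold changes lay below the median subunit on both scales, and 6 of 7 without sgMETTL1.3 replicate 1, where NDUFAF7 lay above it. They were not the lowest of the 45 as a block: NDUFB5 and NDUFV3 ranked below NDUFAF4, and NDUFAF7 ranked 22 from the lowest. In summed values, the 7 factors reached 193, 164 and 190 in sgMETTL1.3 libraries and 273, 284 and 284 in sgNS libraries, and the 38 subunits 6797, 5244 and 6044 in sgMETTL1.3 libraries and 6907, 7447 and 7547 in sgNS libraries. As TPM the sums of the factors were 195, 207 and 208 in sgMETTL1.3 libraries and 250.4, 239 and 243 in sgNS libraries, while those of the subunits were 6888, 6607 and 6636 in sgMETTL1.3 libraries and 6331, 6264 and 6456 in sgNS libraries. The 2 sums thus lay on opposite sides of their sgNS values as TPM.

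**Figure D4:**
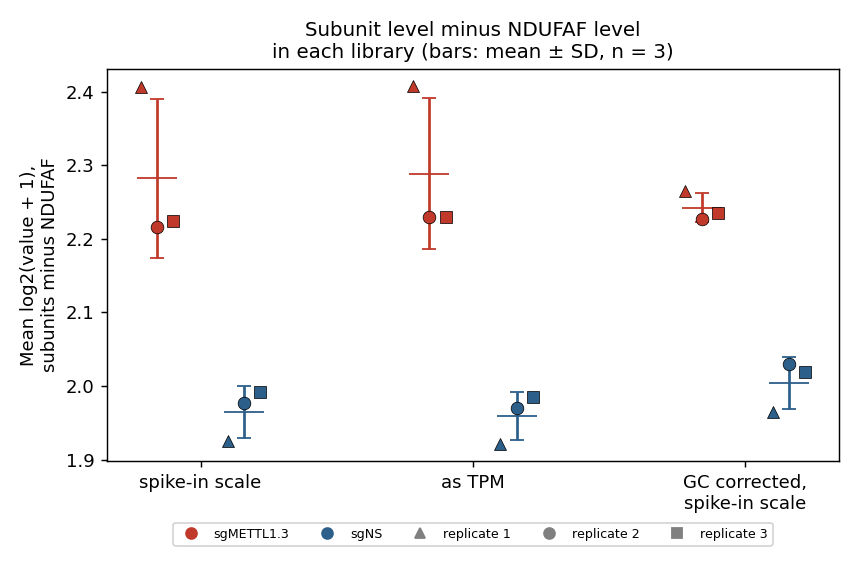
Mean log2(value + 1) of the 38 subunits minus that of the 7 NDUFAF genes (vertical axis) in each sgMETTL1.3 library (red) and sgNS library (blue), on the spike-in scale, as TPM, and with GC correction on the spike-in scale; symbols give the replicate number and bars mean ± SD (n = 3). On each scale the 3 sgMETTL1.3 libraries lie above the 3 sgNS libraries, at 2.22 to 2.41 against 1.93 to 1.99 on the spike-in scale.

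Transcript GC content varied along with the fold changes of these genes. It ran from 36.3% to 61.1% in the 7 NDUFAF genes, with a median of 44.6%, and from 35.9% to 66.8% in the 38 subunits, with a median of 49.99%. Across the 45 genes the Spearman correlation of GC content with the spike-in fold change was 0.540, and 0.341 without sgMETTL1.3 replicate 1, against 0.294 and 0.109 across all tested genes with a GC value. The genes share libraries, so these correlations are descriptions. The GC-rich NDUFAF3 (61.1%) had a log2 fold change of -0.69 without replicate 1 and -0.71 after GC correction, and the GC-poor NDUFAF4 (36.3%) had -0.83 and -0.66. After GC correction 26 of 38 subunits and 7 of 7 NDUFAF genes were called lower on the spike-in scale and none higher, against 60% and 8.27% of all genes. The subunit median was -0.29 in this fit and -0.30 without the correction. The SE was 0.0933 for both NDUFB5 and NDUFS7, against 0.111 and 0.318 without the correction. The counts of the 2 fits therefore differ in the fitted spread, not only in the fold changes. As TPM with GC correction 13 subunits were higher and 10 lower, and 5 NDUFAF genes were lower and none higher, against 30.4% of all genes higher and 33% lower.

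**Figure D5:**
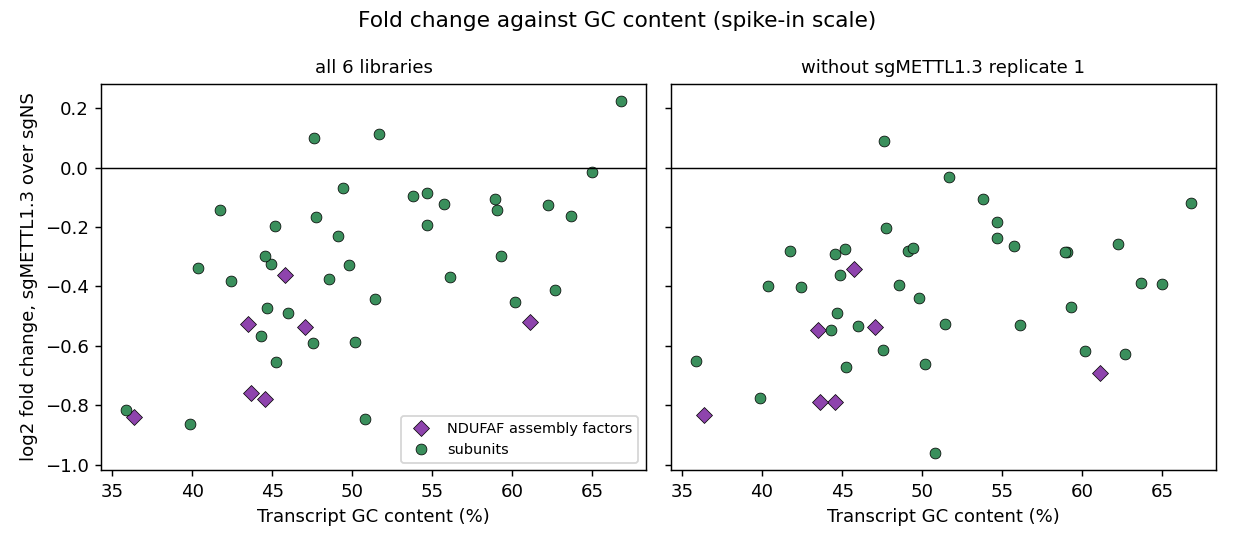
Log2 fold change on the spike-in scale (vertical axis) against mean transcript GC content in percent (horizontal axis) for the subunits (green circles) and 7 NDUFAF genes (purple diamonds), with all 6 libraries on the left and without sgMETTL1.3 replicate 1 on the right. The GC-rich subunits NDUFS7 and NDUFB7 lie near or above 0 on the left (0.22 and -0.01) and at -0.12 and -0.39 on the right, while NDUFAF4 stays near -0.84.

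Promoters of 38 of the 45 genes were read from RefSeq (GRCh38.p14), from 250 bases before to 50 after the start, and searched on both strands for the letters of 4 factors linked to mitochondrial or growth genes. The NRF1 consensus was found in 6 of 32 subunit promoters and 1 of 6 NDUFAF promoters, against 6.28% of 27305 promoters. The ETS letters CCGGAAG were in 5 and 1 of these promoters, against 10.7%, the YY1 letters AAGATGGCG in 5 and 0, against 1.85%, and the E-box CACGTG in 3 and 1, against 7.43%. Of the 7 members with the NRF1 consensus, 4 fell on the spike-in scale, where 49.3% of all tested genes fell. As TPM, 1 of the 7 was lower and 2 were higher, against 25.3% and 24.8% of all tested genes. With only 7 members, these counts cannot show whether the letters went with a direction. The 160 bases before the start are shown for members with the NRF1 consensus that were lower (NDUFA9) or higher (NDUFB4) as TPM, and for members with the ETS letters that were lower on both scales (NDUFAF4) or not called (NDUFS3); capitals mark the NRF1 consensus and the ETS letters on either strand. They lie at chr6:96897892-96898051 (minus strand) for NDUFAF4, chr12:4648954-4649113 (plus strand) for NDUFA9, chr3:120596176-120596335 (plus strand) for NDUFB4 and chr11:47578914-47579073 (plus strand) for NDUFS3.
NDUFAF4: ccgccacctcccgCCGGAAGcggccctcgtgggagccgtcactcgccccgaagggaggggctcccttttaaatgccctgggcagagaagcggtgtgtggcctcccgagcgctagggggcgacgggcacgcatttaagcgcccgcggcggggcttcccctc
NDUFS3: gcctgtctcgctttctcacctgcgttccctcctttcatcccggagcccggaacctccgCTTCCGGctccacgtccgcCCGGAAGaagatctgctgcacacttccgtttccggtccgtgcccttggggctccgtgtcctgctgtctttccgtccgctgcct
NDUFA9: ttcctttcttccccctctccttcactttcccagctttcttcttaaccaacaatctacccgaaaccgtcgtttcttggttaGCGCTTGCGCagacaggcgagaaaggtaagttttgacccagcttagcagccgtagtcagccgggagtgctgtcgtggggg
NDUFB4: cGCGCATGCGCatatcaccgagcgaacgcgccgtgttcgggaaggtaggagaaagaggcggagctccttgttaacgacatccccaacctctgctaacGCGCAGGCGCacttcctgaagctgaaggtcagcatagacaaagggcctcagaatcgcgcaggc
NDUFS3 holds the ETS letters once on each strand, and its log2 fold change was -0.19 against -0.84 for NDUFAF4, which holds them once. The YY1 and E-box letters are not within these stretches. A match is a description of these letters and not a binding site.

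Beside complex I, other mitochondrial lists were read against the same shares of all genes: 49.3% lower and 6.4% higher on the spike-in scale, with a median of -0.32, and 25.3% lower and 24.8% higher as TPM. Of these lists, 23 of 34 subunits of complexes III and IV and ATP synthase fell and none rose, with a median log2 fold change of -0.41, and as TPM 7 were lower and 6 higher, close to the shares of all genes. Their 4 smallest p-values belonged to COX5A (-0.82), COX6B1 (-0.68), ATP5PB (-0.64) and ATP5PF (-0.60), where the table uses older symbols for the ATP synthase genes. Of 8 complex II genes 6 fell, with a median of -0.55, and as TPM 4 were lower and 2 higher, with a median of -0.19; SDHAF3, an assembly factor, fell the most (-1.24), to 13.9, 12.1 and 13.5 in sgMETTL1.3 libraries, against 29.6, 35.1 and 32.8 in sgNS libraries. Of 15 iron-sulfur cluster genes 9 fell, led by ISCA1 (-0.82), and as TPM 4 were lower, close to the share of all genes, and 2 higher. Of 13 regulators of mitochondrial gene expression 9 fell, and as TPM 5 were lower and 2 higher. TFAM, the mitochondrial DNA packaging and transcription factor, fell to 9.74, 10.9 and 13.9 in sgMETTL1.3 libraries, against 46.7, 51.8 and 49.1 in sgNS libraries (-2.02, limma adjusted p = 2.19e-07; as TPM -1.67), and TFB2M fell with a log2 fold change of -1.21.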

How the data were processed

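Per the submitters' processing notes, reads were processed with cutadapt, STAR and RSEM on GRCh38/hg38; their versions, the annotation and any use of strand were not found in these sources. The deposited values are a signal: TPM multiplied by 1 factor per library so that 92 spike-in rows sum equally, read from the values. Low genes were left out (kept: 1 or more in 3 or more of the 6 libraries), and limma 3.58.1 (R 4.3.3; trend and robust options) was run on log2(value + 1), with Benjamini-Hochberg adjustment at 0.05 over all 12449 tested genes and spike-ins left out. All 45 complex I genes passed, each above 5 in every library. Fold changes on this scale understate those of low genes. "As TPM" rescales each library to an equal sum without spike-ins. GC content is the mean over protein-coding GENCODE release 29 transcripts; the correction removed a loess trend per library. Depth is unknown, so no counting interval is given. The fit was tested on simulated data. Values per library were given for NDUFAF genes, core subunits, the subunits with the 5 lowest and 5 highest fold changes and, added after values were seen, NDUFA4; of other lists, up to 4 genes with the smallest p were named. The counts cover all members, but 1 gene is not reported here by name. The members and lists were chosen with earlier results of these data known.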

Additional observations from a re-analysis of the deposited data

How the results depend on the processing

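METTL1 stayed lower in all 20 alternatives (-1.52 to -1.08, and -1.50 to -1.29 with a library left out), no NDUFAF gene was called higher in any of them, and the subunit minus NDUFAF difference stayed between 0.24 and 0.36 (0.26 to 0.35 with a library left out). Alternatives that changed only the gene filter, the test or the block could not change this difference. A factor per library nearly cancels in it, so TPM and median ratios could hardly change it either. Calls depended on the scaling. In the order TPM, median-ratio rescaling, quantile normalization, TPM with the replicate block, TPM with GC correction and TPM without sgMETTL1.3 replicate 1, subunits called higher numbered 9, 9, 11, 8, 13 and 15, subunits lower 5, 7, 5, 6, 10 and 11, and the subunit median was 0.063, 0.064, 0.11, 0.063, 0.082 and 0.039; the NDUFAF median was -0.21, -0.21, -0.27, -0.21, -0.31 and -0.27, and all genes higher numbered 3093, 3142, 2978, 2932, 3782 and 4445. In the same order, all genes lower numbered 3147, 3344, 3231, 2953, 4106 and 4202, of 12236 to 12449 tested. NDUFAF genes lower numbered 3, 5, 4, 3, 5 and 6 of 7. Genes with a mean of at least 5 gave 510 higher, with fewer genes tested. The NDUFAF median was -0.66 with GC correction, with or without the replicate block, and -0.69 without sgMETTL1.3 replicate 1. Leaving out 1 library gave 13 to 31 subunits lower, 6 to 7 NDUFAF genes lower, medians of -0.39 to -0.20 for subunits and -0.69 to -0.48 for NDUFAF genes, 534 to 1037 genes higher (534 without sgMETTL1.3 replicate 3, 538 without sgNS replicate 1) and 4880 to 7538 lower; the 31 and 7538 came without sgMETTL1.3 replicate 1, in the fit that pooled the spread. The cause was not tested. In the order above, the log2 fold change of NDUFV2 was 0.062, 0.064, 0.10, 0.062, 0.14 and 0.14; NDUFS3 had 0.17 with median ratios, 0.24 with quantiles and 0.20 as TPM without sgMETTL1.3 replicate 1; NDUFC1 had 0.30 and 0.16, and NDUFAF7 0.048 and 0.077, in the last 2. Of 22 complex I genes given by library, 7 kept direction and side in every alternative. Deviations of libraries with the same replicate number correlated between -0.0385 and 0.00455 on the spike-in scale. After GC correction these correlations were -0.036, -0.063 and 0.014 for replicates 1, 2 and 3. With 3 libraries per group, such values cannot exclude a shared culture or handling. With the replicate block on the spike-in scale 18 subunits and 7 NDUFAF genes were lower, and of all genes 814 were higher and 5861 lower. Of the sgMETTL1.3 libraries, 1 of 3 correlated best with its own number on the spike-in scale.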
